A study of Mus musculus with 2 samples.

Results

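The immediate-early and heat-shock genes Fos, Fosb, Jun, Junb, Egr1, Ier2, Dusp1, Zfp36, Hspa1a and Hspa1b were followed across the cell classes of mouse subcutaneous tumours. They were taken by gene symbol, and all 10 were found among the 32285 genes of both count matrices. Tumours came from mice on a diet free of serine and glycine (1 library, titled SG) or on a control diet (1 library, titled CT), and these titles were read with the help of the series' design text, where a control diet and a -SG diet appear. The sources used here do not give the mouse strain, sex, age, tumour line, time on the diet or number of mice per library. By the labels' protocols, the tissue was minced and digested with type II collagenase in a warm water bath before 10x Genomics 3' sequencing. The same text speaks of human cardiac tissue, against the mouse and tumour of the organism and tissue fields, so the digestion steps may belong to another study.

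Immediate-early genes are transcribed within minutes of a growth factor, cytokine or stress signal, without new protein synthesis, mainly through kinases that act on SRF, TCF and CREB factors bound near their promoters. Fos and Jun proteins pair into the AP-1 transcription factor, Egr1 is a zinc-finger activator, and Dusp1 and Zfp36 end the response by dephosphorylating MAP kinases and by degrading AU-rich mRNAs. Hspa1a and Hspa1b encode nearly the same inducible HSP70 chaperone, switched on by heat-shock factor 1 when proteins unfold. Both sets are also known to be induced by warm enzymatic dissociation of tissue, and Dusp1 and Zfp36 are known glucocorticoid targets as well. How the tissue was handled and how the cells stood in the animal cannot be told apart in a design with 1 library per diet.

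The serine/glycine-free library held 173592046 unique molecular identifiers (UMIs, 1 per captured RNA molecule) in 20662 barcodes, and the control library held 173785388 in 14774. After filters and removal of called doublets 19107 serine/glycine-free and 13588 control cells were used, with medians of 7305 and 11310.5 UMIs. Between the libraries 71 barcodes of used cells were shared. Clusters were formed without 86 listed genes, the 10 among them, and 7 classes with at least 50 cells in each library were compared. They were presumed tumour cells (14029 serine/glycine-free and 10791 control cells), monocyte/macrophage-like (2069 and 1594), T-like (1500 and 484), NK-like (288 and 191), dendritic-like (143 and 114), neutrophil-like (196 and 123) and fibroblast-like cells (159 and 113). Presumed tumour cells are those of 11 clusters with no leukocyte or stromal name, and their 8 pan-leukocyte markers together made up 18.1 CPM (counts per 1000000 UMIs) in the serine/glycine-free and 12.0 CPM in the control library. RNA released by tumour cells can enter every droplet. Genes typical of the tumour cells stood at 2.49% to 10.8% of their tumour level in the monocyte/macrophage-like, T-like, NK-like and dendritic-like classes, at 30.3% (serine/glycine-free) and 26.3% (control) in fibroblast-like cells, and at 89.1% and 43.2% in neutrophil-like cells. Values of the neutrophil-like class are therefore given apart.

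Promoter sequences show which control elements the genes share. RefSeq promoters (build GRCm38.p6, the 250 bases before the start) were matched for 8 of the 10 genes, all but Egr1 and Ier2. The Hspa1a and Hspa1b promoters are shown because the genes lie side by side on chromosome 17 and share 247 of these 250 bases (98.8%). Capitals mark the heat-shock element core GAANNTTC and the CCAAT box, here on the reverse strand.
Hspa1a promoter, chr17:34972157-34972406, strand -: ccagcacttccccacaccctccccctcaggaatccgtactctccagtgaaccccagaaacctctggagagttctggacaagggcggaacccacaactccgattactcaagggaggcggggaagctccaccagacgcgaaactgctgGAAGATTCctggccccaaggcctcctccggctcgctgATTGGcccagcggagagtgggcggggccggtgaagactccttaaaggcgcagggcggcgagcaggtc
Hspa1b promoter, chr17:34959239-34959488, strand -: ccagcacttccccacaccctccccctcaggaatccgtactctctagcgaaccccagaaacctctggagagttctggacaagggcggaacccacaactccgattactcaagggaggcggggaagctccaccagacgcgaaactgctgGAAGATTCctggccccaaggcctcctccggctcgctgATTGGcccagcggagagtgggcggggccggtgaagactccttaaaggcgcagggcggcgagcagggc
Both held the heat-shock core 104 bases and the CCAAT box 67 bases before the start. The core was found in 6.69% of all 32851 promoters of this length, both strands searched. Jun also held a match, 128 bases before its start.

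The Dusp1, Zfp36, Fos and Fosb promoters are shown because these genes differed most between the diets in presumed tumour cells, Dusp1 and Zfp36 upward and the AP-1 genes downward. Capitals mark the core of the cyclic AMP response element TGACG (the whole element is TGACGTCA), the serum response element's CArG box and the TATA box TATAA.
Dusp1 promoter, chr17:26508473-26508722, strand -: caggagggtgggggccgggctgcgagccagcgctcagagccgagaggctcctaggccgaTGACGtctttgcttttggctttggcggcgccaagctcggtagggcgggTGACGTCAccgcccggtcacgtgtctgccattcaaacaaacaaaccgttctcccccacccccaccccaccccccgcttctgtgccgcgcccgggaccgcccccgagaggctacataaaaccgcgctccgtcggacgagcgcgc
Zfp36 promoter, chr7:28379229-28379478, strand -: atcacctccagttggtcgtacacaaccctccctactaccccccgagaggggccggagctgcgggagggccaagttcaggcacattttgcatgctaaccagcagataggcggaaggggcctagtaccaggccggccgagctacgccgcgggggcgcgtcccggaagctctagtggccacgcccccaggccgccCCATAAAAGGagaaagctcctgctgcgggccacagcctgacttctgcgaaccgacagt
Fos promoter, chr12:85473640-85473889, strand +: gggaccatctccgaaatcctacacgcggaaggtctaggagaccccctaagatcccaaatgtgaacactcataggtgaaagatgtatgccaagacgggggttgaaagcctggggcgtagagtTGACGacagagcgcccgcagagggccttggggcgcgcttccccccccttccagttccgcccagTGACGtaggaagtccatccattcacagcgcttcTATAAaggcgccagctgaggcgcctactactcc
Fosb promoter, chr7:19310046-19310295, strand -: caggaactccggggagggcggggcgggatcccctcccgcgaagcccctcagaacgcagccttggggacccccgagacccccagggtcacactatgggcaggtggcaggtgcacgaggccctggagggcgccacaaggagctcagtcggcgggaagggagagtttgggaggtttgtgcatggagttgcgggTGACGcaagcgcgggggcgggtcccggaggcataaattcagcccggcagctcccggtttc
Dusp1 held the whole TGACGTCA 143 bases before its start, an element found in 1.55% of promoters, and a further TGACG core 191 bases before it. Fos held the core at 129 and 66 bases, Fosb at 60 bases and Junb at 106 bases, against 17.8% of promoters with at least 1 core. Zfp36 held a CArG box 58 bases before its start, found in 1.47% of promoters, and Fos a TATAA 33 bases before its start, found in 22.8%. A match describes the letters only, and elements farther upstream lie outside this window.

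Levels are UMIs of a gene per 1000000 UMIs of its class and library (CPM), and a log2 ratio is the serine/glycine-free CPM over the control CPM. Neither diet has a second library, so there is no replicate and no test. Ranges in brackets are 95% intervals that cover counting error only, and a ratio compares these libraries. Over the 7 classes 15 of 70 gene-by-class ratios were above 0 and 54 below, with 1 undefined, and the counting interval lay above 0 in 8 and below 0 in 35. A ratio was at least 1.5 times higher in 4 cases and at least 1.5 times lower in 22, or 16 without the neutrophil-like class. Over all genes, the share above 0 was 50.2% to 63.5% by class. The share at least 1.5 times higher was 3.13% to 38.0%, and at least 1.5 times lower 3.04% to 18.1%. A share pooled over classes was not computed. The genes did not move together. Fos, Fosb and Jun were lower in 7 of 7 classes, whereas Dusp1 was higher in 5 and Zfp36 in 4.

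In presumed tumour cells 2 of the 10 genes were at least 1.5 times higher (Dusp1 and Zfp36), against 3.13% of all 11918 genes measured there, and 2 at least 1.5 times lower (Fos and Fosb), against 3.04%. Among monocyte/macrophage-like cells 0 were higher (7.31% of genes) and 2 lower, Fosb and Jun (5.11%). In T-like cells 0 were higher (8.63%) and 5 lower, Fos, Fosb, Jun, Hspa1a and Hspa1b (5.85%). In NK-like cells Egr1 alone was past that size upward (13.1%) and Fosb and Hspa1b downward (6.74%), and in dendritic-like cells 0 were higher (11.3%) and Fosb, Jun, Hspa1a and Hspa1b lower (8.32%). In fibroblast-like cells Dusp1 was higher (13.4%) and Hspa1a lower (8.13%). Of the neutrophil-like ratios 0 were higher and 6 lower, where 38.0% of all genes passed that size upward and 18.1% downward. Counting any size, 6 of the 10 were higher in presumed tumour cells (56.3% of all genes), 2 in monocyte/macrophage-like (50.2%), 1 in T-like (55.7%), 3 in NK-like (55.4%), 1 in dendritic-like (54.7%), 0 in neutrophil-like (63.5%) and 2 in fibroblast-like cells (52.9%). Background genes had at least 1 CPM in a library and 20 UMIs in all. Hspa1a missed that in presumed tumour cells, Hspa1a and Hspa1b in NK-like cells and Hspa1a in neutrophil-like cells, and the counts above keep them.

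**Figure D1:**
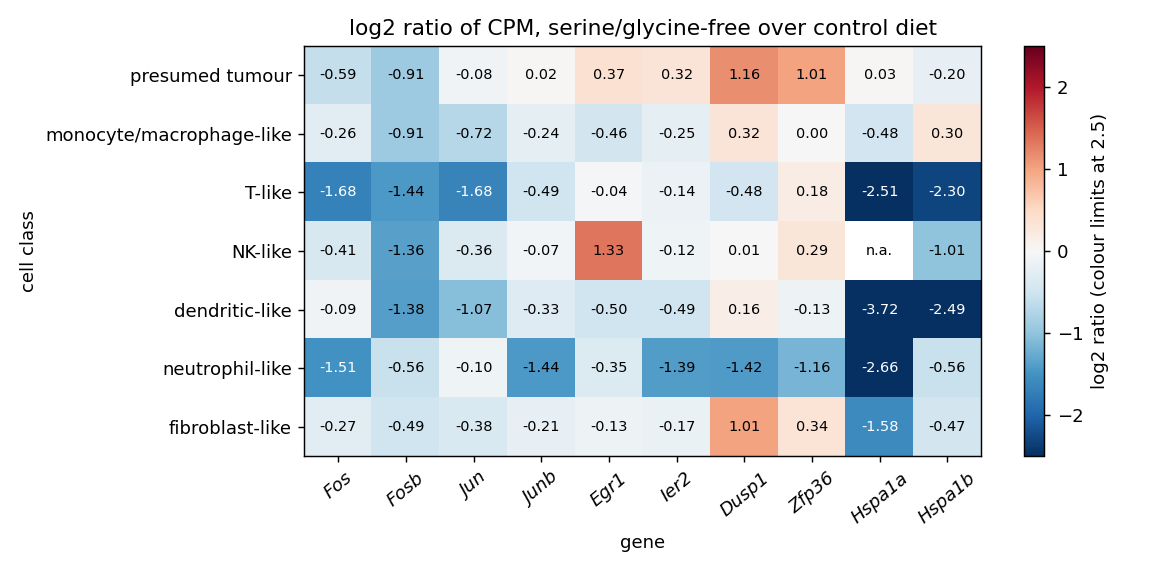
Log2 ratio of CPM, serine/glycine-free over control library, for each gene (columns) in each cell class (rows), red where higher and blue where lower. The Fos, Fosb and Jun columns are below 0 in every class, Dusp1 and Zfp36 stand at 1.16 and 1.01 in presumed tumour cells, and Hspa1a in NK-like cells has no ratio because the serine/glycine-free library held 0 UMIs.

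The genes were most abundant in different classes. In the serine/glycine-free library Fos stood at 591 CPM in monocyte/macrophage-like, 446 in neutrophil-like, 354 in dendritic-like, 160.3 in fibroblast-like, 65.8 in NK-like, 39.5 in presumed tumour and 35.6 CPM in T-like cells, the last 2 with overlapping intervals. In the control library the order was neutrophil-like (1273 CPM), monocyte/macrophage-like (709.6), dendritic-like (376), fibroblast-like (194), T-like (114), NK-like (87.2) and presumed tumour cells (59.4), with T-like and NK-like intervals that overlapped. Dusp1 was lowest in presumed tumour cells of both libraries, at 106 CPM in the serine/glycine-free and 47.4 CPM in the control library, and highest in neutrophil-like cells. Its serine/glycine-free intervals in tumour, NK-like and T-like cells (113 and 116 CPM) overlapped. Egr1 was highest in neutrophil-like cells, at 484 CPM in the serine/glycine-free library, where tumour RNA alone could give 70.5% of it, and 617 CPM in the control library, and next highest in presumed tumour cells. Its T-like, NK-like and dendritic-like levels were below those of the other 4 classes in both libraries.

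Among the AP-1 genes, Fos, which needs a Jun partner to bind DNA, stood at 39.5 CPM (38.5 to 40.6) in presumed tumour cells of the serine/glycine-free library and 59.4 CPM (58.2 to 60.7) in the control library. The log2 ratio was -0.59 (-0.64 to -0.54), just past 1.5 times. In T-like cells Fos stood at 35.6 CPM in the serine/glycine-free library and 114 CPM in the control library, from 105 and 148 UMIs, with a log2 ratio of -1.68 (-2.06 to -1.31). In monocyte/macrophage-like cells, where Fos was 15 times its tumour level in the serine/glycine-free and 11.9 times in the control library, the values were 591 and 709.6 CPM and the log2 ratio -0.26 (-0.32 to -0.20). The intervals of NK-like (-0.41), dendritic-like (-0.09) and fibroblast-like cells (-0.27) reached or crossed 0.

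Fosb, a Fos relative that also pairs with Jun proteins, was lower by a similar size in most classes. It stood at 46.8 CPM in serine/glycine-free and 87.8 CPM in control tumour cells, a log2 ratio of -0.91 (-0.95 to -0.87). Monocyte/macrophage-like cells held 62.6 and 118 CPM in the serine/glycine-free and control libraries, again -0.91 (-1.08 to -0.74). The log2 ratios were -1.44 (-1.93 to -0.96) in T-like, -1.36 (-2.18 to -0.58) in NK-like and -1.38 (-2.15 to -0.67) in dendritic-like cells. Those 3 rest on 68, 20 and 23 serine/glycine-free UMIs against 81, 51 and 58 control UMIs. In fibroblast-like cells the log2 ratio was -0.49 (-0.93 to -0.06).

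Jun, the main DNA-binding partner, barely differed in presumed tumour cells, at 240.5 CPM (serine/glycine-free) and 255 CPM (control), a log2 ratio of -0.08 (-0.10 to -0.06). In T-like cells it stood at 47.1 CPM in the serine/glycine-free library and 151 CPM in the control library, -1.68 (-2.0 to -1.35), and tumour RNA alone could give 36.8% and 10.4% of those levels. Less that tumour RNA the log2 ratio was -2.18, and with the unnamed cluster of T-cell and tumour markers counted as T-like it was -0.48. In dendritic-like cells Jun stood at 111 and 233 CPM in the serine/glycine-free and control libraries, -1.07 (-1.51 to -0.65), or -0.49 with called doublets kept, and in monocyte/macrophage-like cells at 277 and 455 CPM, -0.72 (-0.80 to -0.64). Fibroblast-like cells stood at -0.38 (-0.60 to -0.17), while the intervals of NK-like (-0.36, -0.79 to 0.07) and neutrophil-like cells (-0.10, -0.48 to 0.30) crossed 0.

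Junb, a weaker activator that restrains Jun in many settings, differed little in presumed tumour cells, at 239 CPM with the serine/glycine-free diet and 235 CPM with the control diet, 0.02 (0.00 to 0.05). It stood at 539 and 637 CPM in monocyte/macrophage-like cells of the serine/glycine-free and control libraries, -0.24 (-0.30 to -0.18), and in T-like cells at 344 and 483 CPM, -0.49 (-0.64 to -0.35). Within presumed tumour cells, then, Fos and Fosb were lower while the Jun partners stood within 0.1 of equal on the log2 scale.

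Egr1, a zinc-finger activator, and Ier2, a nuclear protein of less defined role, had positive ratios in presumed tumour cells, Egr1 in 2 of 7 classes and Ier2 in 1 of 7. Egr1 stood at 383 CPM (380 to 386) in the serine/glycine-free and 296 CPM (293 to 299) in the control tumour cells, a log2 ratio of 0.37 (0.35 to 0.39). Ier2 stood at 138 and 111 CPM in the serine/glycine-free and control tumour cells, 0.32 (0.29 to 0.35). The log2 ratios in monocyte/macrophage-like cells were -0.46 (-0.60 to -0.33) for Egr1 and -0.25 (-0.37 to -0.12) for Ier2, from 112 and 130 CPM with the serine/glycine-free diet and 154 CPM each with the control diet.

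Egr1 UMIs in lymphoid and dendritic cells were in good part at the level that tumour RNA could give. That part was 50.2% (serine/glycine-free) and 32.2% (control) of the level in T-like cells, 57.7% and 25.7% in NK-like cells, and 61.0% and 29.8% in dendritic-like cells. The Egr1 log2 ratio of 1.33 (0.61 to 2.09) in NK-like cells rested on 58 serine/glycine-free and 23 control UMIs. It was 0.52 less tumour RNA and -0.15 after each cell was thinned to 1000 UMIs.

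Dusp1, which removes phosphate from MAP kinases, was 2.23 times higher in presumed tumour cells, at 106 CPM (104 to 107) in the serine/glycine-free library and 47.4 CPM (46.3 to 48.6) in the control library, a log2 ratio of 1.16 (1.11 to 1.20). Zfp36, also called tristetraprolin, which leads AU-rich mRNAs such as those of Fos and Tnf to decay, was 2.02 times higher, at 58.3 CPM (57.1 to 59.6) and 28.9 CPM (28.1 to 29.8) in the serine/glycine-free and control libraries, 1.01 (0.96 to 1.07). Dusp1 in fibroblast-like cells stood at 189 and 93.6 CPM in the serine/glycine-free and control libraries, 1.01 (0.67 to 1.36), from 227 and 102 UMIs, but at 0.25 after thinning each cell to 1000 UMIs.

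Leukocyte classes varied in both genes. In monocyte/macrophage-like cells Dusp1 was higher, as in tumour cells but by less, and stood at 480.5 CPM in the serine/glycine-free library and 386 CPM in the control library, 0.32 (0.24 to 0.39). Zfp36 stood there at 322 and 323 CPM, -0.0028 (-0.09 to 0.08). In T-like cells Dusp1 was lower, at 116 CPM with the serine/glycine-free diet and 162 CPM with the control diet, -0.48 (-0.73 to -0.22), and Zfp36 stood at 46.5 and 40.9 CPM, 0.18 (-0.28 to 0.67). In NK-like and dendritic-like cells the intervals of both genes crossed 0. In a GRCm38 annotation the Dusp1 locus overlaps AC122252.4 and AC122252.1 on the same strand and Ergic1 and Gm8225 on the opposite strand. Also on opposite strands, Zfp36 overlaps Gm44710, Jun overlaps Junos, Junb overlaps Prdx2 and Hspa1a overlaps Gm20481. The sources used here do not give the strand setting of the counting, so reads of these partners cannot be told apart from those of the genes.

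**Figure D2:**
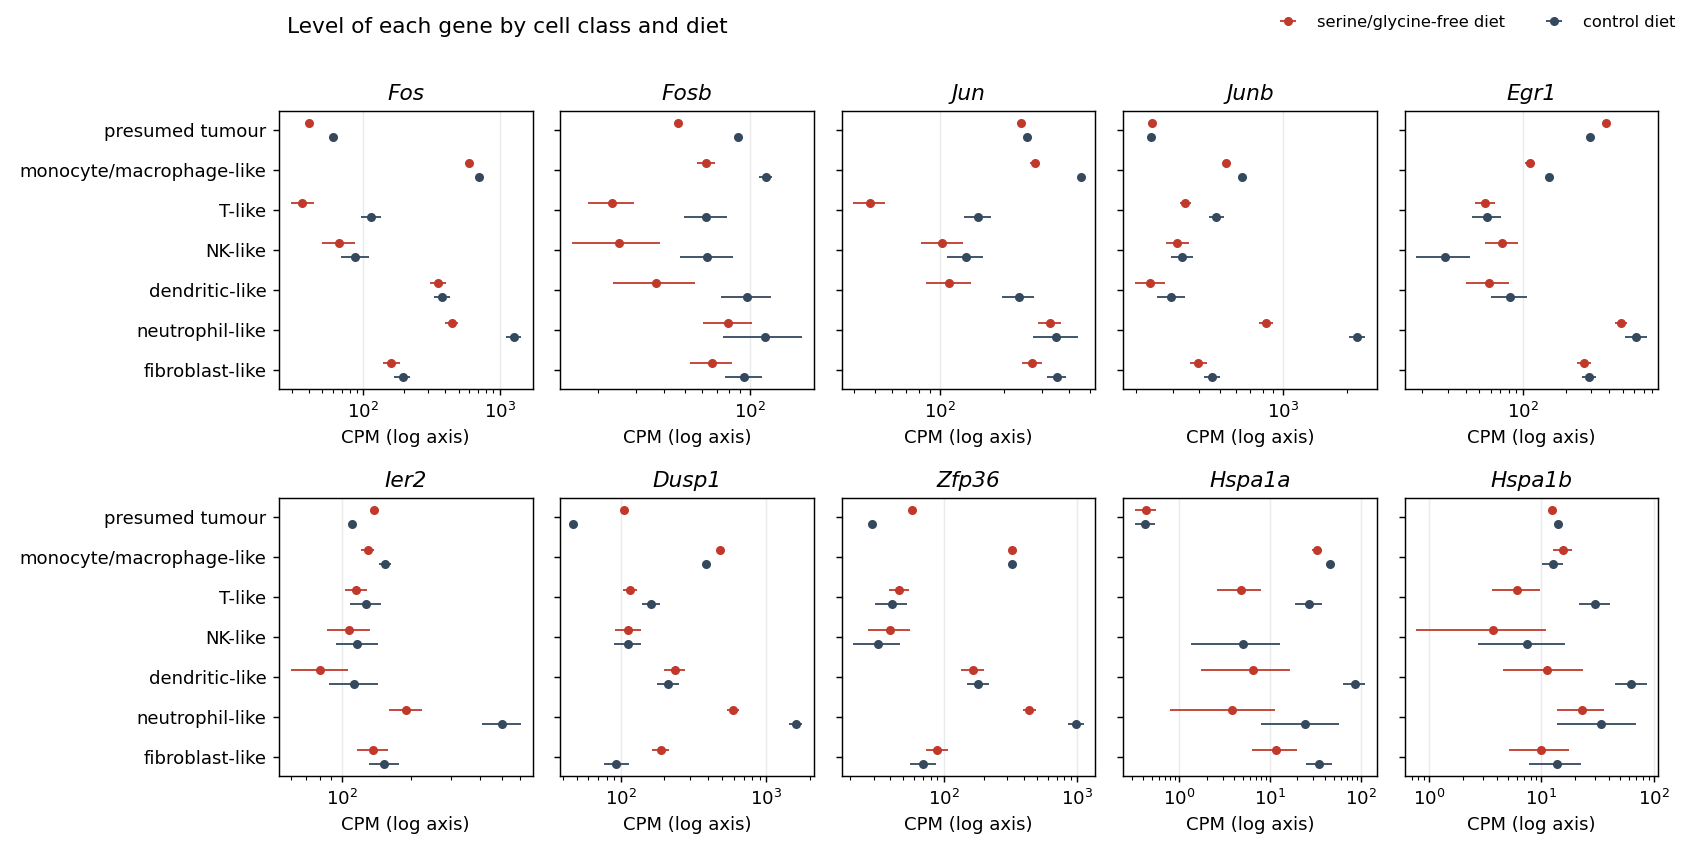
CPM of each gene (log axes) by cell class, in red for the serine/glycine-free and dark blue for the control library, with 95% Poisson intervals for counting error. Dusp1 and Zfp36 stand to the right in red in presumed tumour cells, and Fos and Fosb to the left.

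In neutrophil-like cells the log2 ratios of Dusp1 and Zfp36 were negative, but the make-up of the class's RNA differed between the libraries. The tumour-typical genes stood at 89.1% of their tumour level there in the serine/glycine-free library and 43.2% in the control library. The pan-leukocyte markers together were lower as well, at 1152 CPM in serine/glycine-free and 4376 CPM in control cells of this class. Dusp1 stood at 593 CPM (serine/glycine-free) and 1588 CPM (control), -1.42 (-1.63 to -1.21), and Zfp36 at 438 and 976 CPM, -1.16 (-1.41 to -0.90). The share of cells with a UMI did not follow these levels closely. Unthinned, Dusp1 was found in 78.1% of serine/glycine-free and 81.3% of control neutrophil-like cells, and Zfp36 in 71.4% and 61.8%. Thinning kept 79 and 34 cells, and the intervals overlapped for Dusp1 (27.3 to 49.6 and 37.9 to 72.8) and Zfp36 (22.7 to 44.4 and 22.2 to 56.4). Fos stood at 446 and 1273 CPM in the serine/glycine-free and control libraries (-1.51), Junb at 829 and 2244 CPM (-1.44) and Ier2 at 190.4 and 500.3 CPM (-1.39). Less the level that tumour RNA could give, but with the UMI total left unchanged, the log2 ratios were -1.65 for Dusp1 and -1.32 for Zfp36. They were -1.60 for Fos, -1.80 for Junb and -2.75 for Ier2. That total held unlike parts of tumour RNA in the 2 libraries. These ratios therefore do not compare the class's own RNA.

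The tumour pattern held within clusters. The 10 presumed tumour clusters with at least 50 cells in each library include some led by mitotic genes (Plk1, Ccnb1), by interferon-response genes (Ifit1, Cxcl10) and by matrix genes (Aspn, Ogn). Dusp1 was higher in the serine/glycine-free library in 10 of 10 (log2 ratios of 0.15 to 1.45), Zfp36 in 10 of 10 (0.37 to 1.24), Egr1 and Ier2 in 9 of 10. Fos was lower in 10 of 10 (-1.81 to -0.11) and Fosb in 10 of 10 (-1.77 to -0.23). These clusters share their 2 libraries, so the counts speak to the mix of clusters and not to replication.

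The cluster led by Cxcl1, Gadd45b, Bnip3 and Dnajb1 stood apart. Fos stood there at 46.8 CPM in the serine/glycine-free and 164 CPM in the control library (-1.81), and Fosb at 41.9 and 143 CPM (-1.77). Egr1 and Ier2, higher in the other 9 clusters, had log2 ratios of -0.30 and -0.41, and Dusp1 its smallest one, 0.15, at 143 CPM (serine/glycine-free) and 129 CPM (control). Hspa1b was higher there, at 42.0 and 23.6 CPM in the serine/glycine-free and control libraries, 0.83 (0.58 to 1.09). Its ratio was below 0 in the other 9 clusters, in several of them with an interval that crossed 0. The cluster held 1567 serine/glycine-free and 624 control cells. In the cluster led by Aspn, Ogn and Cp, Dusp1 stood at 327 CPM with the serine/glycine-free diet and 119 CPM with the control diet (1.45), and Zfp36 at 147 and 62.0 CPM (1.24).

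**Figure D3:**
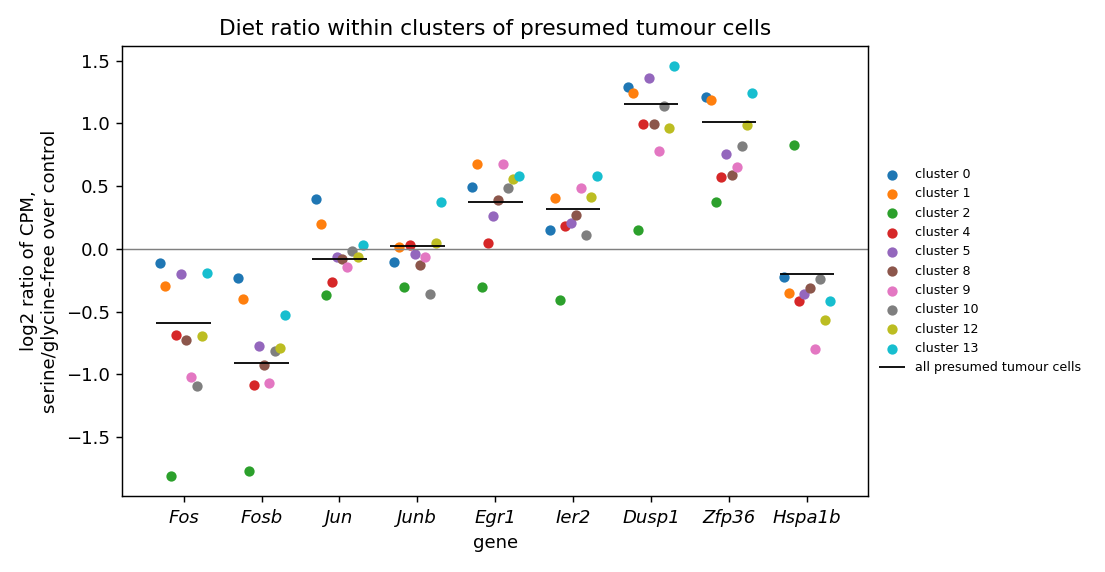
Log2 ratio of CPM, serine/glycine-free over control library, for 9 genes (x axis) in each of 10 presumed tumour clusters (points), with bars for all presumed tumour cells. All Dusp1 and Zfp36 points lie above 0 and all Fos and Fosb points below 0. The cluster led by Cxcl1 and Gadd45b (number 2) is lowest for Fos, Fosb, Egr1 and Ier2 and the single one above 0 for Hspa1b.

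Monocyte-like and C1q macrophage-like clusters differed in part. In the monocyte-like cluster, led by F10, Thbs1 and Vcan (682 serine/glycine-free and 571 control cells), the log2 ratios were -1.60 (-1.99 to -1.23) for Fosb, -1.08 (-1.33 to -0.84) for Egr1 and -0.49 (-0.58 to -0.40) for Junb. In the macrophage-like cluster, led by C1qa, C1qc and C1qb (1387 and 1023 cells), they were -0.67 (-0.87 to -0.48), -0.07 (-0.24 to 0.09) and 0.11 (0.02 to 0.19). Dusp1 was higher in both, at 737 and 653 CPM in monocyte-like cells of the serine/glycine-free and control libraries (0.18), and 409.6 and 293 CPM in macrophage-like cells (0.48). Hspa1a was at 0.34 (-0.05 to 0.74) in the monocyte-like and -0.94 (-1.28 to -0.62) in the macrophage-like cluster.

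T-like cells fell in a cluster led by Pdcd1 and Cd8a (819 serine/glycine-free and 235 control cells) and one led by Bcl11b and Icos (681 and 249), so most came from the Pdcd1 cluster in the serine/glycine-free library and from the Bcl11b cluster in the control library. Fos was lower in both, with log2 ratios of -1.98 (-2.57 to -1.40) in the Pdcd1 and -1.29 (-1.79 to -0.80) in the Bcl11b cluster, and so was Jun, at -1.94 (-2.36 to -1.53) and -1.19 (-1.73 to -0.66). Zfp36 had ratios of opposite sign, 1.15 (0.32 to 2.09) and -0.31 (-0.92 to 0.31), the first of these from 78 serine/glycine-free and 14 control UMIs.

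Cells with a UMI of a gene depend on depth, so each cell was also thinned to 1000 UMIs and shallower cells were left out (40 of 14029 serine/glycine-free and 21 of 10791 control tumour cells). Dusp1 was then found in 10.97% (10.5 to 11.5) of serine/glycine-free and 4.63% (4.24 to 5.05) of control tumour cells, and unthinned in 42.6% and 28.6%. Zfp36 was found in 6.15% (5.76 to 6.57) and 3.05% (2.73 to 3.39) after thinning, and Egr1 in 27.5% (26.7 to 28.2) and 21.4% (20.7 to 22.2). Fosb was found in 4.17% (3.85 to 4.52) of thinned serine/glycine-free cells and 6.92% (6.44 to 7.41) of control cells, and Fos in 4.04% (3.72 to 4.38) and 5.63% (5.20 to 6.08). More serine/glycine-free than control tumour cells held a UMI for 6 of the 10 genes after thinning and for 3 before it, where median UMIs per tumour cell were 8838 and 12787. Of those 6, Junb and Hspa1b had overlapping intervals, and the same count over all genes was not computed.

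**Figure D4:**
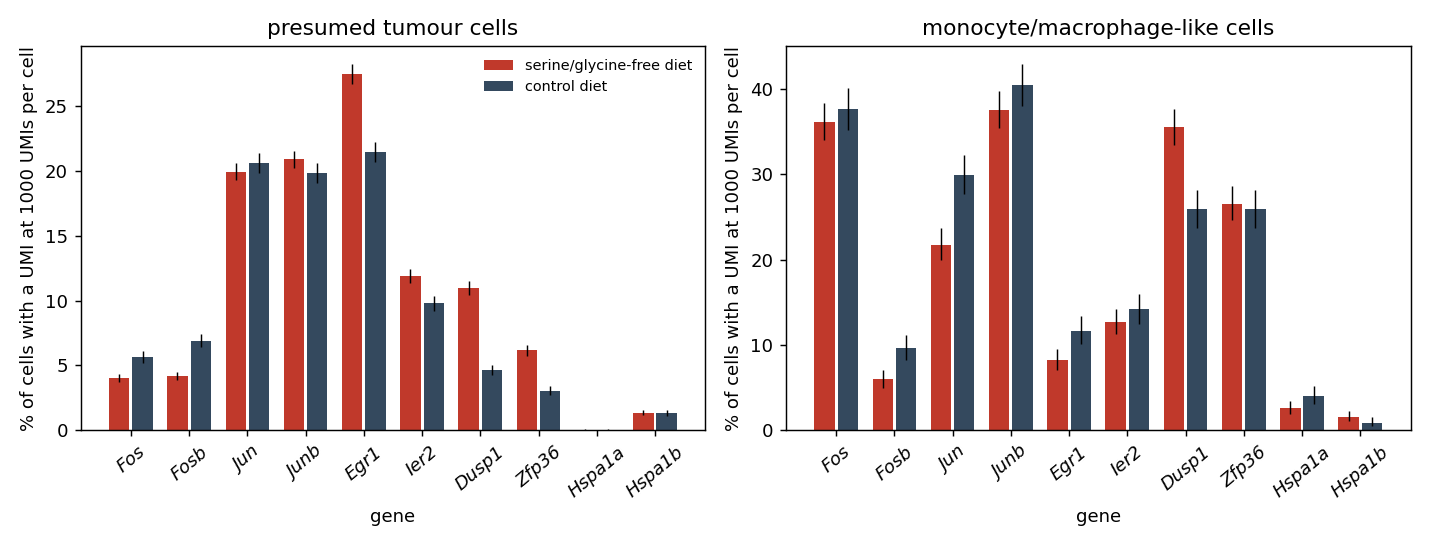
Percent of cells with at least 1 UMI of each gene after thinning each cell to 1000 UMIs, in presumed tumour cells (left) and monocyte/macrophage-like cells (right), red for the serine/glycine-free and dark blue for the control library. Error bars are exact 95% binomial intervals. In tumour cells Dusp1 stands at 10.97% and 4.63%, and in monocyte/macrophage-like cells at 35.5% and 25.9%.

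In thinned monocyte/macrophage-like cells Dusp1 was found in 35.5% (33.4 to 37.7) of serine/glycine-free and 25.9% (23.8 to 28.2) of control cells, and unthinned in 58.5% and 48.9%. Jun was found in 21.8% (20.0 to 23.7) and 29.96% (27.7 to 32.3) of thinned cells. In T-like cells thinning left out 386 of 1500 serine/glycine-free and 52 of 484 control cells. Fos was then found in 3.14% (2.198 to 4.34) of serine/glycine-free and 9.03% (6.50 to 12.1) of control T-like cells, and Jun in 3.32% (2.35 to 4.55) and 11.1% (8.31 to 14.5). None of the 10 genes had a higher share in serine/glycine-free than in control T-like cells after thinning, but the intervals of Junb, Egr1, Ier2, Zfp36 and Hspa1a overlapped. The same count over all genes was not computed.

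Fos and Fosb UMIs were concentrated in few tumour cells. The 5% of tumour cells richest in Fos held 62.1% of its UMIs in the serine/glycine-free and 54.3% in the control library, against 22.4% and 22.2% for Jun. Such a share depends on the level, and Jun stood higher (240.5 and 255 CPM, against 39.5 and 59.4 CPM for Fos). For Zfp36, nearer to Fos in level (58.3 and 28.9 CPM), the shares were 37.0% and 45.9%. Genes were also found together. After thinning, Fosb was found in 21.2% (17.9 to 24.9) of serine/glycine-free tumour cells with a Fos UMI and in 3.46% (3.15 to 3.78) of those without one. In control tumour cells these shares were 31.7% (28.0 to 35.5) and 5.44% (5.01 to 5.90). Dusp1 was found in 35.0% (31.1 to 39.1) of serine/glycine-free tumour cells with a Fos UMI and in 9.95% (9.45 to 10.5) of those without, against 19.8% (16.7 to 23.2) and 3.73% (3.37 to 4.12) in control cells. Dusp1 was thus found more often in the serine/glycine-free library both in cells with and in cells without Fos. Tumour cells with at least 3 of the 8 immediate-early genes made up 10.5% (10.0 to 11.02) of the thinned serine/glycine-free and 8.52% (8.003 to 9.07) of the control cells. T-like cells with at least 3 of these 8 genes made up 3.23% (2.27 to 4.45) and 8.80% (6.30 to 11.9).

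Hspa1a was close to absent from presumed tumour cells, with 60 UMIs in 14029 serine/glycine-free and 63 UMIs in 10791 control cells, or 0.432 and 0.424 CPM. Hspa1b was present there at 12.3 CPM (11.7 to 12.9) with the serine/glycine-free diet and 14.1 CPM (13.5 to 14.7) with the control diet, -0.20 (-0.29 to -0.11). In T-like cells Hspa1a stood at 4.75 CPM (serine/glycine-free) and 27.0 CPM (control), from 14 and 35 UMIs, -2.51 (-3.52 to -1.58). Hspa1b stood at 6.10 and 30.1 CPM in the serine/glycine-free and control T-like cells, -2.30 (-3.20 to -1.46). In dendritic-like cells Hspa1a had 4 serine/glycine-free and 51 control UMIs, -3.72 (-5.65 to -2.28), and Hspa1b had 7 and 38, -2.49 (-3.90 to -1.31). Monocyte/macrophage-like cells held 227 and 340 Hspa1a UMIs in the serine/glycine-free and control libraries, or 32.7 and 45.7 CPM, -0.48 (-0.73 to -0.24). Their Hspa1b stood at 15.5 and 12.6 CPM, 0.30 (-0.11 to 0.71). In NK-like cells Hspa1a had 0 serine/glycine-free UMIs, with a Poisson interval up to 4.58 CPM, and 4 control UMIs. Hspa1b had 3 serine/glycine-free and 6 control UMIs there.

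Both HSP70 genes thus had lower summed levels in T-like and dendritic-like cells of the serine/glycine-free library and differed little in tumour cells. Few cells carried them. The richest 5% of control dendritic-like cells held 76.5% of Hspa1a and 63.2% of Hspa1b UMIs, and of control T-like cells 100% of both. After thinning, intervals of the share of cells overlapped for Hspa1a in T-like and Hspa1b in dendritic-like cells. They did not for Hspa1b in T-like and Hspa1a in dendritic-like cells. The split of UMIs between Hspa1a and Hspa1b depended on the class more than on the diet. Hspa1a held 3.39% (2.60 to 4.34) of the pair's UMIs in serine/glycine-free and 2.92% (2.25 to 3.72) in control tumour cells. It held 67.8% (62.5 to 72.7) and 78.3% (74.2 to 82.1) in monocyte/macrophage-like cells of the serine/glycine-free and control libraries, 43.8% (26.4 to 62.3) and 47.3% (35.6 to 59.2) in T-like cells, and 53.8% (33.4 to 73.4) and 71.7% (57.6 to 83.2) in fibroblast-like cells. The transcripts shared 58.8% (Hspa1a) and 62.3% (Hspa1b) of their windows of 50 bases, but 0% in the last 500 bases, where 3' reads mostly start. The sources used here do not say how reads that fit both genes were counted, so the split is uncertain.

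**Figure D5:**
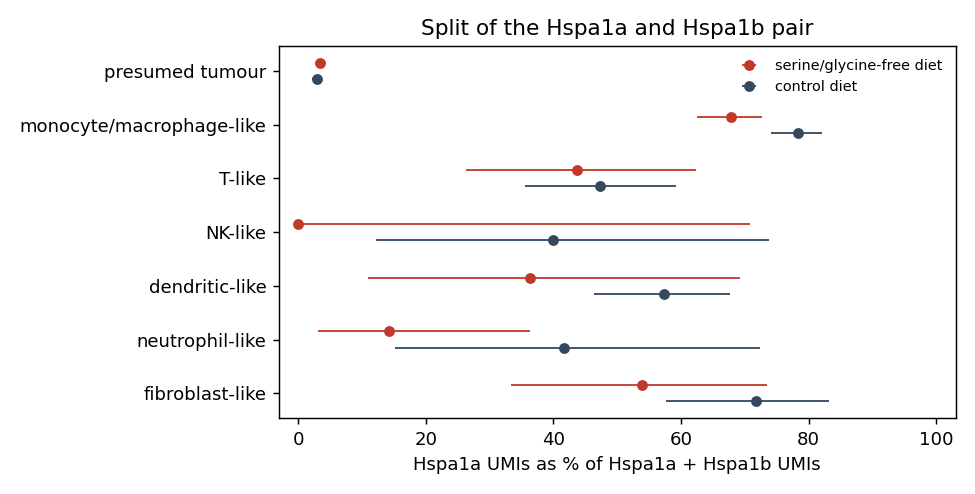
Hspa1a UMIs as a percent of the summed Hspa1a and Hspa1b UMIs (x axis) by cell class, red for the serine/glycine-free and dark blue for the control library, with exact 95% binomial intervals. Presumed tumour cells stand at 3.39% and 2.92%, and monocyte/macrophage-like cells at 67.8% and 78.3%.

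Monocyte/macrophage-like cells with several immediate-early genes held the HSP70 genes more often in both libraries. Among thinned control monocyte/macrophage-like cells a Hspa1a or Hspa1b UMI was found in 7.62% (5.85 to 9.72) of those with at least 2 immediate-early genes and in 0.959% (0.262 to 2.44) of those with 0. In the serine/glycine-free library these shares were 4.55% (3.34 to 6.04) and 1.47% (0.593 to 3.01). In presumed tumour cells they were 1.49% (1.14 to 1.93) and 1.07% (0.809 to 1.38) with the serine/glycine-free diet, and 2.17% (1.63 to 2.83) and 1.04% (0.769 to 1.37) with the control diet. T-like cells gave overlapping intervals, at 0.599% (0.015 to 3.29) and 1.33% (0.574 to 2.60) in the serine/glycine-free library and 5.36% (1.99 to 11.3) and 2.23% (0.612 to 5.62) in the control library. Dendritic-like cells held 0% (0 to 8.22) and 3.33% (0.406 to 11.5) in the serine/glycine-free library, and 22.9% (10.4 to 40.1) and 1.89% (0.0478 to 10.1) in the control library.

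The other genes of these pathways are given by listed sets, for genes with at least 100 UMIs over both libraries in the class. In presumed tumour cells 17 of 18 feedback inhibitors and mRNA decay factors were higher in the serine/glycine-free library (56.3% of all genes) and 3 were at least 1.5 times higher (3.13%), with a median log2 ratio of 0.24, against 0.03 over all genes. They included Tnfaip3, an inhibitor of NF-kB signalling (17.7 CPM serine/glycine-free and 9.86 CPM control, 0.84), Nfkbia, which holds NF-kB in the cytoplasm (248 and 145 CPM, 0.78), and Dusp2, another MAP kinase phosphatase (0.70). Dusp5, a nuclear ERK phosphatase, was the exception (16.9 and 21.7 CPM, -0.35).

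Of 25 other AP-1 and immediate-early genes 17 were higher in tumour cells, where 56.3% of all genes were, and 8 lower, with a median of 0.23, and 3 were at least 1.5 times higher (3.13% of all genes). Ccn2, a matricellular target of SRF and YAP, stood at 15.2 CPM with the serine/glycine-free diet and 6.92 CPM with the control diet (1.14), and Ier3 at 59.1 and 36.2 CPM (0.71). Btg2, an antiproliferative immediate-early gene (-0.58), Rhob (-0.38) and Klf10 (-0.37) were lowest. Of 18 upstream kinases and SRF/TCF factors 10 were higher (56.3% of all genes) and 8 lower (median 0.01), with Rps6ka1 (-0.89) and the SRF coactivator Mrtfa (-0.47) lowest and Srf at 0.29.

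Of 27 heat-shock factors, chaperones and co-chaperones other than the pair, 18 were higher in presumed tumour cells (56.3% of all genes) and 9 lower, none by 1.5 times, with a median of 0.04. Dnajb1, the co-chaperone of HSP70, stood at 109 CPM in the serine/glycine-free library and 77.0 CPM in the control library (0.51), the constitutive HSP70 gene Hspa8 at 1418 and 1042 CPM (0.44), and the mitochondrial chaperonin Hspe1 at 325 and 442 CPM (-0.44). The log2 ratio of Cryab was 0.31, and those of Bag3 and Hsph1 were -0.27 and -0.20. Of 12 endoplasmic reticulum chaperones 4 were higher (56.3% of all genes) and 8 lower (median -0.03), with Hspa5 at 582 and 739 CPM (-0.35). In T-like cells 11 of 20 heat-shock genes of the first list were higher (55.7% of all genes) and 9 lower (median 0.05), beside the log2 ratios of -2.51 and -2.30 of the pair. At least 1.5 times higher were 4 of 18 in fibroblast-like cells (13.4% of all genes) and 8 of 15 in neutrophil-like cells (38.0%).

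Glucocorticoid-induced genes were higher in 11 of 11 cases in presumed tumour cells (56.3% of all genes), 5 of them by at least 1.5 times (3.13%), with a median of 0.57. Cebpd stood at 143 CPM (serine/glycine-free) and 45.8 CPM (control), 1.64, the kinase Sgk1 at 100.5 and 41.3 CPM, 1.28, and Zbtb16 at 138 and 14 UMIs, 3.40. The 3 lowest were Klf9 (0.26), Errfi1 (0.19) and Mt2 (0.01), and the interval of Mt2 crossed 0 (-0.007 to 0.03). In monocyte/macrophage-like cells 10 of 10 were higher (50.2% of all genes, median 0.41), and in T-like cells 7 of 9 (55.7%, median 0.36), where Dusp1 itself stood at -0.48. Whether glucocorticoids have a part in the Dusp1 and Zfp36 ratios was not tested.

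The other immediate-early genes differed between leukocyte classes. In monocyte/macrophage-like cells 7 of 25 were higher (50.2% of all genes) and 18 lower (median -0.10), with Btg2 at -0.52 and Rhob at -0.58, and in T-like cells 2 of 16 were higher (55.7% of all genes) and 14 lower (median -0.29), with Rhob at -1.03. In NK-like cells 6 of 11 were higher and 5 lower (median 0.08, 55.4% of all genes higher), and in dendritic-like cells 3 of 9 were higher and 6 lower (median -0.12, 54.7%). Feedback inhibitors stood at a median of 0.08 in monocyte/macrophage-like cells (10 of 16 higher, against 50.2% of all genes) and 0.09 in T-like cells (9 of 14 higher, against 55.7%).

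Measures of RNA quality and depth moved with the diet in part. Of 9 mitochondrially encoded and nuclear-retained RNAs 0 were higher in presumed tumour cells (56.3% of all genes) and 9 lower, none by 1.5 times (median -0.11). Barcodes over the limit of 20% mitochondrial UMIs made up 1.63% of the serine/glycine-free and 3.99% of the control library, tumour cells had the median depths of 8838 and 12787 UMIs given above, and their median mitochondrial share per cell was 4.03% with the serine/glycine-free diet and 4.47% with the control diet. With cells grouped by that share, the Dusp1 log2 ratio was 0.67 below 2.5% (2267 serine/glycine-free and 1246 control cells), 1.12 from 2.5% to 5%, 1.51 from 5% to 10% and 1.53 from 10% to 20% (124 and 183 cells). The Fos log2 ratio was -1.18, -0.63, -0.17 and, with an interval that crossed 0 (-1.04 to 0.20), -0.40 in the same groups. Hspa1b changed sign, at 0.49 (0.27 to 0.71) below 2.5%, -0.42 (-0.55 to -0.30) from 2.5% to 5%, -0.59 (-0.82 to -0.37) from 5% to 10% and -0.19 (-1.35 to 0.86) above that. What the time and temperature of the dissociation contributed was not tested.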

How the data were processed

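The authors deposited raw counts of UMIs for each gene and barcode from Cell Ranger (7.0.1 per the file headers, 2.2.2 with mm10 per the submitters' processing notes). Annotation release and intron handling are not given in these sources. Columns of other samples numbered 0. Cells needed at least 500 UMIs, 300 genes and at most 20% mitochondrial UMIs. Barcodes over that limit made up 1.63% of the serine/glycine-free and 3.99% of the control library. Scrublet, run per library, removed 1205 serine/glycine-free (5.93%) and 571 control cells (4.03%). Cells were clustered in scanpy 1.11.5 (Python 3.11.15) on 2000 variable genes, 30 principal components, 15 neighbours and Leiden resolution 1, giving 23 clusters. No count was corrected for released RNA.

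A cluster took the name of a marker panel when at least 3 panel genes were in 10% of its cells and 2 times above the rest, with a mean log2 fold of at least 1. A leukocyte name also needed the pan-leukocyte panel at that fold, a condition set after the data were seen, which left 1 cluster with T-cell and tumour markers unnamed. Not compared, with under 50 control cells or no name, were endothelial-like, plasmacytoid dendritic-like, B/plasma-like and mixed cells. Counts were summed per class and library. Ratio intervals were exact conditional binomial, levels exact Poisson and shares Clopper-Pearson, all at 95%. With no replicate libraries no p-value was computed. The level tumour RNA could give is a gene's tumour CPM times the class's level of 5 tumour-typical genes relative to tumour cells, in the same library. Where it was subtracted, the UMI total of the class was left unchanged. The calculation was tested on simulated data.

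Genes were named from the 10 members, the 3 highest and 3 lowest of each listed set in presumed tumour cells, and the genes closest in profile (10 for the immediate-early genes, 5 for the HSP70 pair). Not all of those from the listed sets are given. The genes, lists, markers and thresholds were chosen with earlier results of these data known. Alternatives changed the scaling, doublets, mitochondrial limit, clustering, cluster weights, depth per cell, pseudocount and fold. An alternative that left out some T-like cells is not reported here.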

Additional observations from a re-analysis of the deposited data

Results flagged for a closer look

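Dusp1 and Zfp36 had log2 ratios of opposite sign in different classes. Dusp1 stood at 1.16 in presumed tumour cells and 1.01 in fibroblast-like cells, against -1.42 in neutrophil-like cells, and Zfp36 at 1.01 in presumed tumour cells against -1.16 in neutrophil-like cells. With 1 library per diet the difference between classes was not tested. Tumour-typical RNA stood at 89.1% of its tumour level in neutrophil-like cells of the serine/glycine-free library and 43.2% in the control library. The pan-leukocyte markers together stood at 1152 CPM in serine/glycine-free and 4376 CPM in control neutrophil-like cells. The negative ratios therefore do not show lower Dusp1 or Zfp36 in the class's own RNA. Zfp36 was found in 71.4% of serine/glycine-free and 61.8% of control neutrophil-like cells before thinning. After it the intervals of both genes overlapped between the libraries.

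Barcodes over the mitochondrial limit, which enter no comparison, held several of the genes above the level of the used cells once mitochondrial UMIs were left out of the total, and most of them below it on the full total used elsewhere. In the 337 such serine/glycine-free barcodes Fos stood at 148 CPM, against 72.3 CPM in used cells, and Dusp1 at 193 CPM, against 131 CPM, but Jun at 210 against 248 CPM, Egr1 at 318 against 376 CPM and Ier2 at 119 against 143 CPM. In the 589 such control barcodes Fos stood at 361 CPM, against 98.8 CPM in used cells, Fosb at 151 CPM against 93.0, Jun at 358 CPM against 276, and Junb at 402 CPM against 273. Egr1 stood at 395 CPM in these control barcodes, against 298 in used cells, Ier2 at 191 CPM against 119, Dusp1 at 224 CPM against 70.7 and Zfp36 at 137 CPM against 47.1. On the full total the serine/glycine-free barcodes held Fos at 63.2 CPM, against 69.4 in used cells, and Dusp1 at 82.7 CPM against 126, and the control barcodes held Jun at 121 CPM, against 264 in used cells, but Fos at 122 CPM against 94.5. The values rest on 21 to 120 UMIs per gene, from barcodes with medians of 925 (serine/glycine-free) and 1212 (control) UMIs. These barcodes were given no class, so the comparison with all used cells is not matched by class. Levels differ widely between classes. In the serine/glycine-free library Fos stood at 591 CPM in monocyte/macrophage-like and 39.5 CPM in presumed tumour cells. The part of the mix of classes in these differences was not tested.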

How the results depend on the processing

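Each alternative was run on the ratios of the 10 genes in 7 classes. In presumed tumour cells Dusp1 (1.01 to 1.37) and Zfp36 (0.81 to 1.08) stayed at least 1.5 times higher and Fosb stayed below 0 (-0.95 to -0.79) under every scaling, cell filter and weighting. Fos (-0.68 to -0.49) lay near the threshold, so the tumour count of lower genes was 1 in place of 2 with doublets kept, with each cell thinned to 1000 UMIs and with a pseudocount of 10 CPM. A fold of 2 left 0 lower genes in tumour cells and 0 in monocyte/macrophage-like cells, and a fold below 1.5 gave 4 lower genes in monocyte/macrophage-like cells and 37 lower ratios over all classes, against 22. Counting the mixed cluster as T-like, chosen after seeing the data, gave 1 higher gene in T-like cells in place of 0. Without thinning, 3 in place of 6 genes had a higher share of cells in the serine/glycine-free tumour cells. Of the ratios past 1.5 times, those that reversed were Hspa1b in NK-like cells (0.87 with doublets kept), Egr1 in NK-like cells (-0.15) and Hspa1a in fibroblast-like cells (0.085), the last 2 with each cell thinned to 1000 UMIs. Thinning also took Dusp1 in fibroblast-like cells to 0.25, doublets kept took Jun in dendritic-like cells to -0.49, and the mixed cluster took Jun in T-like cells to -0.48. The cause was not tested. Of the smaller ratios, 9 changed sign with doublets kept, 9 with thinning and 4 with each other scaling. Also chosen after seeing the data, leaving out small tumour clusters or the neutrophil-like class, or subtracting tumour RNA, reversed 0 ratios past the fold. The subtraction left the UMI total unchanged, so it does not speak to the neutrophil-like ratios. Another size factor moved the median of all genes by -0.18 in neutrophil-like cells and by at most 0.05 elsewhere. No paired analysis was possible because each diet has 1 library and the labels give no replicate numbers. Depth limits Hspa1a most, with 0 to 63 UMIs per library in every class but monocyte/macrophage-like cells.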

Other observations

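Genes whose level followed the mean of the 8 immediate-early genes most closely over 14 class-by-library profiles were Fbxl5, Isg15, Slc7a11, Msrb1, Ets2, Oas2, Cxcl2, Mcemp1, Soat1 and Pfkfb4, with Pearson correlations of log2(CPM + 10) from 0.95 down to 0.92 among 9348 genes. Isg15 and Oas2 are interferon-induced, Ets2 is a target of Ras signalling, and Cxcl2 is a neutrophil attractant. The profiles share 2 libraries and differ in depth and in released RNA, so the correlations are a description. For the HSP70 pair the closest were Nr4a1, itself an immediate-early nuclear receptor (0.85), Vps9d1 (0.79), Gm42418 (0.78), Irf7 (0.74) and Aff1 (0.74). Among the 10 genes the closest pairs over the same 14 profiles were Dusp1 and Zfp36 (0.95), Fos and Zfp36 (0.93), Junb and Ier2 (0.92) and Fosb and Jun (0.88), whereas Egr1 and Hspa1a stood at -0.04. Fos and Zfp36 thus followed each other across classes although their diet ratios in presumed tumour cells were -0.59 and 1.01.

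Genes listed as feedback inhibitors also differed between leukocyte classes. Tnfaip3 stood at 87.0 CPM in serine/glycine-free and 58.8 CPM in control monocyte/macrophage-like cells (0.57), and at 339 and 344 CPM in T-like cells (-0.02). Nfkbia stood at 403 and 337 CPM in monocyte/macrophage-like cells of the serine/glycine-free and control libraries (0.26) and at 232 and 317 CPM in T-like cells (-0.45). Dusp2, high in T-like cells, stood there at 330.3 CPM with the serine/glycine-free diet and 219 CPM with the control diet (0.60). Cebpd, 1.64 in tumour cells, had 75 serine/glycine-free and 6 control UMIs in T-like cells (2.46), where tumour RNA was not subtracted, and Zbtb16 had 6 and 19 (-2.85).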
